A study of Homo sapiens with 4 samples.

Results

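The replication-dependent histone genes make the bulk histones of new chromatin, and 74 of the 59885 genes in the comparison of CFL1 knockout with control PANC-1 cells were taken as members. A member is any gene whose symbol begins with HIST and a cluster number from 1 to 4 and continues with a class (H1, H2A, H2B, H3 or H4) and letters only, with pseudogene symbols that end in PS and a digit left out. The rule read symbols alone and used no measured value. It gave 6 H1, 15 H2A, 23 H2B, 15 H3 and 15 H4 entries. HIST1H3D is listed under a pair of gene IDs, so the 74 entries carry 73 symbols. By their position in GENCODE v29, 56 lie on chromosome 6, 17 on chromosome 1 and 1 on chromosome 12. Of the members 5, all of class H2B, are annotated as pseudogenes. HIST2H2AA3 and HIST2H2AA4 end in a digit and fall outside the rule.

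A nucleosome wraps DNA around H2A, H2B, H3 and H4, and H1 binds the linker DNA between nucleosomes. Replication-dependent histone genes are transcribed mainly in S phase, when new DNA needs new nucleosomes, under the coactivator NPAT. Most lack introns, and their mRNAs end after a conserved stem-loop bound by SLBP in place of a poly(A) tail. Most H2A and H2B genes of the chromosome 6 cluster stand in head-to-head pairs that share a promoter. The core histone genes of a class mostly encode the same or nearly the same protein, while the H1 genes encode subtypes that differ more.

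PANC-1 is an established human cell line from a pancreatic ductal adenocarcinoma. The CFL1 knockout group had 2 RNA-seq libraries from cells in which the gene of the actin-severing protein cofilin-1 was knocked out, and the control group had 2 libraries labelled only as control. The labels give no guide, clone, vector or treatment for either group, and name no culture or clone for a library, so the spread behind each p-value may be technical. Whether the RNA was selected by its poly(A) tail, and whether reads were counted by strand, is not given in the sources used here. That selection bears on histone mRNA, since most of it has no tail, and its part in the values below was not tested.

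The reads of each library were solved from the base means in the authors' deposited table, for 99.9% of the genes searched and for every member with a read. Among the 62 measured members described below, the fold change implied by the reads matched the deposited one for 60, and the reads of HIST1H3I and HIST1H4L, whose knockouts are at or near 0, rest on the base mean alone. The libraries are called knockout A and B and control A and B, and the letters cannot be tied to the numbers in the labels. Recovered totals were 17141183 and 14454584 reads in the knockouts, and 16746706 and 17075086 reads in the controls. These totals leave out 12 genes with a base mean of 50000 or more, which were not searched. CFL1, the targeted gene, had normalized counts of 2285 and 2487 in the knockouts and 6276 and 13761 in the controls. It fell, and its log2 fold change of -2.07 had a standard error (SE) of 0.454 and an adjusted p of 0.00168 by DESeq2 in the authors' deposited table.

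Control B differed from the remaining 3 libraries. Over the 17268 genes whose base mean reached 10, the correlation of log2 values was 0.719 to 0.727 between control B and each other library and 0.978 to 0.986 among the other libraries. Over the 62 histone genes at that level, the same values were 0.252 to 0.282 and 0.978 to 0.993. Of 7 ductal and epithelial markers all 7 were measured, with summed normalized counts of 22116 and 21134 in the knockouts and 29873 and 57398 in the controls. Of these, CDH1 had 3.54 and 2.16 in the knockouts and 12.7 and 164 in the controls, and KRT8 had 8149.6 and 8049 in the knockouts and 13712 and 29355 in the controls. The ductal keratin genes KRT19 and KRT7, picked out after their values were seen, differed in opposite directions in control B. KRT19 had no read in either knockout, 1.82 in control A and 2481 in control B, while KRT7 had 4000.4 and 3683 in the knockouts, 3551 in control A and 108 in control B. Of 6 leukocyte markers 3 were measured, with sums of 43.4 and 36.7 in the knockouts, 41.8 in control A and 1254 in control B. Most of that last sum was CD68, with 1217 in control B, and CD14 had 8.85 and 9.71 in the knockouts and 9.09 and 36.9 in the controls. The fibroblast markers, 2 of 6 measured, summed to 1126 and 1007 in the knockouts and 866 and 1580 in the controls. Here too the markers parted in control B, with 1574 for COL1A1 against 354 in control A, and 6.71 for PDGFRB against 513 in control A. The endothelial markers, 2 of 4 measured, summed to 11.5 and 11.9 in the knockouts and 21.8 and 165 in the controls, and KDR had reads in control B only, with 156 normalized counts. None of 4 acinar and none of 3 endocrine markers was measured. Whether control B holds the same cells as the other libraries was not tested, and every fold change over the control group includes it, which is why values are also given against each control.

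The stem-loop that replaces the poly(A) tail is shown for the forms found, with the stem in capitals and the loop in lower case. A 16-base match to the histone stem-loop consensus was searched in the GENCODE v29 transcripts and found in 28 of the 69 members that have a protein-coding transcript there (40.6%), against 15 of 19615 other genes (0.0765%). It could be found only where the annotation extends past the stop codon, as it does for 35 members. In members annotated under their own symbol it began 22 to 56 bases after the stop codon.
HIST1H3H: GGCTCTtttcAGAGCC
HIST1H4B: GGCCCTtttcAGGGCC
HIST1H2BC: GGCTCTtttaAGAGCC
HIST1H3E: GGCTCTtctcAGAGCC
HIST1H2AG: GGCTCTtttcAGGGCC
The first form was present in 16 members of the classes H2A, H2B and H3, and the third in 5 members of H2B and H3. The form of HIST1H4B was present in 5 members, all of class H4, and the last 2 forms in 1 member each.

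Promoters of 1 gene per class are shown next because the classes hold different short motifs in their promoters. They run from 250 bases before to 50 bases after the gene start in RefSeq, build GRCh38.p14, each in the direction of its gene. HIST1H1C lies at chr6:26056421-26056720 on the minus strand and HIST1H2AC at chr6:26123922-26124221 on the plus strand. HIST1H2BE lies at chr6:26183511-26183810 on the plus strand, HIST1H3C at chr6:26045134-26045433 on the plus strand and HIST1H4B at chr6:26027234-26027533 on the minus strand. Capitals mark, on either strand, the CCAAT box (CCAAT), the octamer ATTTGCAT that OCT1 binds, the TATA motif TATAAA and the AAACACA box known from H1 promoters.
HIST1H1C: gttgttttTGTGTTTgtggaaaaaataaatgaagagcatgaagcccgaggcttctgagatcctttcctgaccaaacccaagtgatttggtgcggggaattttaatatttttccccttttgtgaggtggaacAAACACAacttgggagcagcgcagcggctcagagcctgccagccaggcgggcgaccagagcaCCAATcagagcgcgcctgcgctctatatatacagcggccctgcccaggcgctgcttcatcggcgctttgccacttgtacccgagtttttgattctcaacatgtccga
HIST1H2AC: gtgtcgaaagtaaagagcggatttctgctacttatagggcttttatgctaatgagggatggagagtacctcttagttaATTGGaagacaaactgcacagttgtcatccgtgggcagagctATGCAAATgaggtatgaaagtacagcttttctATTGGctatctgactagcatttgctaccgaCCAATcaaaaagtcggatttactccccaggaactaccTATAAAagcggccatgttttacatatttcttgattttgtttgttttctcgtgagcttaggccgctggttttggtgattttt
HIST1H2BE: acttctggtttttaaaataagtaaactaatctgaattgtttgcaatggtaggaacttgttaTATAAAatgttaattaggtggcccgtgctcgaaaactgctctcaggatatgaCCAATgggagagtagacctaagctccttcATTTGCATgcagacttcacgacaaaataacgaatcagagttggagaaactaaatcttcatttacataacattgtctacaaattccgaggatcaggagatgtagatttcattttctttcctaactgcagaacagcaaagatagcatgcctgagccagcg
HIST1H3C: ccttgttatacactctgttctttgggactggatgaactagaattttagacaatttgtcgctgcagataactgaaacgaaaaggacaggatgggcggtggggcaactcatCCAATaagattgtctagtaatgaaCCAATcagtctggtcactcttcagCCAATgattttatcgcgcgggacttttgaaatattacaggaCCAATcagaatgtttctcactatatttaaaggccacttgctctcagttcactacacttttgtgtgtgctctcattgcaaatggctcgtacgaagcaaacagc
HIST1H4B: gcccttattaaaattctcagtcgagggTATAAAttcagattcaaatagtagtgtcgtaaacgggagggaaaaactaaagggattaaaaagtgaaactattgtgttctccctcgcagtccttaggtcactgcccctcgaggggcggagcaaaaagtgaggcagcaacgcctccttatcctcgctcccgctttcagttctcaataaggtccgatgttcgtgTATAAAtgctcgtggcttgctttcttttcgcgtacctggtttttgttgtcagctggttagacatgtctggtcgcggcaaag
The promoters of HIST1H1C and HIST1H3C hold no octamer, and that of HIST1H4B holds no CCAAT. That of HIST1H2BE is not typical of its class, with 1 CCAAT where 16 of 18 H2B promoters hold 2 or more.

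RefSeq promoters were matched for 63 of the 74 members, and both strands were searched. CCAAT was in 53 of them (84.13%), against 34.61% of all 35116 promoters in the table. By class it was in 6 of 6 H1, 14 of 14 H2A, 18 of 18 H2B and 12 of 12 H3 promoters and in 3 of 13 H4 promoters. The octamer was in 26 member promoters (41.27%), against 1.774% of all promoters. Those 26 were 11 of 14 H2A, 14 of 18 H2B and 1 of 12 H3 promoters, and it was in none of the H1 and H4 promoters. TATAAA was in 41 (65.08%), against 11.53% of all promoters. AAACACA was in all 6 H1 promoters and in 9 members in all (14.29%), against 5.644% of all promoters. A match describes these letters in this window and is not a binding site shown by these data.

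Of the 74 members, 62 were measured, which here means a base mean (the mean normalized count over the 4 libraries) of 10 or more. A further 8 had reads below that level, and 4 had no read, HIST1H2AA, HIST2H2BA, HIST2H2BB and HIST3H2BA. Among the 8 were HIST1H1T, HIST1H2BA and HIST3H3, which with HIST1H2AA make up a list of 4 histone genes known mainly from testis. The filter on the mean lets a gene in through its higher group, so counts below describe the measured members and test nothing.

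Histone gene levels were mostly higher in the knockouts, but 1 member passed the authors' test. HIST1H3C, a replicative H3 gene, rose, and no member fell, at a DESeq2 adjusted p under 0.05 in the authors' deposited table, so 1.61% of the measured members rose, against 0.138% of the genes tested, while 0.421% of those genes fell. HIST1H3C had normalized counts of 3768 and 2829 in the knockouts and 1431 and 963 in the controls. Both knockouts lay above both controls, and the mean of the knockouts was 2.30-fold that of control A and 3.42-fold that of control B. By the authors' deposited table it had a log2 fold change of 1.46, with an SE of 0.339 and an adjusted p of 0.00485 by DESeq2. With limma on the recovered reads it had an unadjusted p of 0.00946 and an adjusted p of 0.721. In bulk RNA, more cells in S phase and more histone RNA per cell cannot be told apart.

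At an unadjusted p under 0.05 in the authors' deposited table, 23 of 62 measured members were higher in the knockouts (37.1%) and 1 was lower (1.61%), against 3.07% and 9.43% of all measured genes. The log2 fold change was above 0 for 53 members (85.5%), against 48.6% of all measured genes in the authors' deposited table. Its median was 0.76 over the measured members and -0.02 over all measured genes in the authors' deposited table. Both knockouts lay above both controls for 46 members (74.2%), against 23.7% of all measured genes. Both lay below for 2 members (3.23%), HIST1H2BE and the annotated pseudogene HIST2H2BD, against 21.2%, and the groups overlapped for the other 14. Without pseudogenes and with HIST1H3D counted once, both lay above for 45 of 59 measured members and below for 1. The limma test called 0 members higher and 0 lower at an adjusted p under 0.05, as it called 0 genes in all, and 12 members were higher at an unadjusted p under 0.05, against 1.1% of the genes it tested. None was lower at that level, against 0.91%. Among the 17268 measured genes with recovered reads, 164 were higher and 136 lower at that level. Limma tested genes with a mean of at least 1. Its percents of genes tested, here and without either control, therefore also cover genes below the measured level and are not on the members' basis. Without control B it called 0 members, with 16 measured members higher and 0 lower at an unadjusted p under 0.05, against 7.48% and 5.4% of the genes it tested. Without control A it called 26 measured members higher and 3 lower, against 17.3% and 16.2%.

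The size of the difference depended on which control it was taken against. The log2(normalized count + 1) of the knockout mean minus control A had a median of 0.47 over the members, and minus control B a median of 1.26, beside 0.00 and 0.01 over all measured genes. Both knockouts lay above control A for 48 members (77.4%), against 40.4% of all measured genes, and above control B for 51 members (82.3%), against 47%. The knockout libraries were close to each other, with 59 of 62 members within 2-fold. The controls were within 2-fold of each other for 32 of 62.

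**Figure D1:**
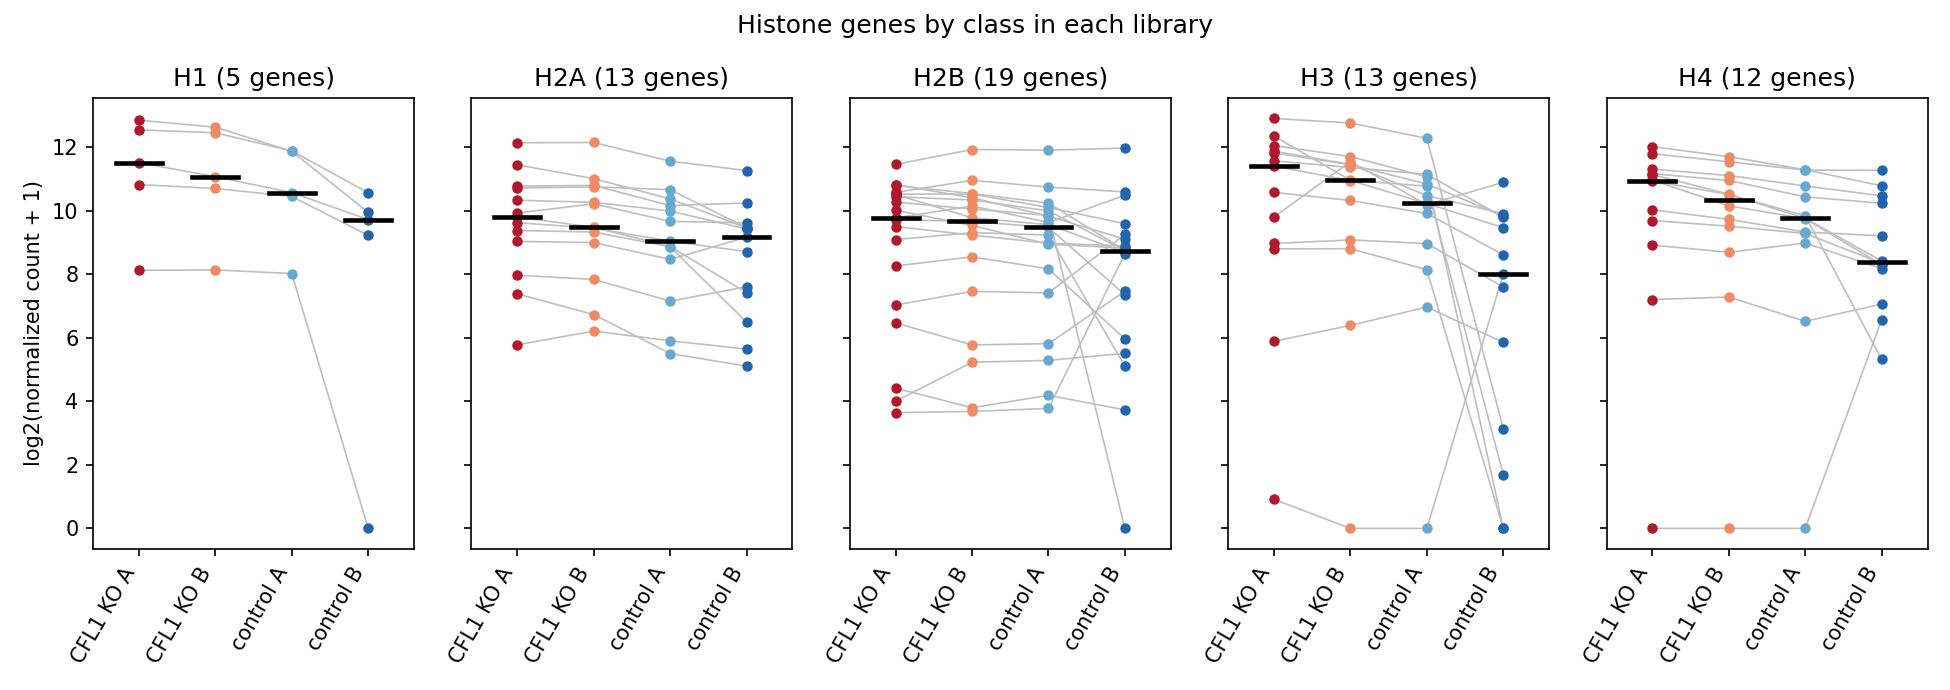
Log2(normalized count + 1) of each measured histone gene (points) in the 2 CFL1 knockout and 2 control libraries, with a panel for each class, grey lines joining a gene and black bars at the class median. In each class the medians of both knockout libraries lie above those of both controls, and 2 H3 genes, 1 H1 gene and 1 H2B gene drop to 0 in control B.

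For each of the 5 measured linker histone genes both knockouts lay above both controls, against 23.7% of all measured genes. H1 had 3 members (60%) higher at an unadjusted p under 0.05 in the authors' deposited table, against 3.07% of all measured genes. These were HIST1H1C, HIST1H1E and HIST1H1B. None was called, the lowest adjusted p by DESeq2 being 0.221. HIST1H1C had 7424 and 6378 normalized counts in the knockouts and 3762 and 993 in the controls. HIST1H1E had 6017 and 5636 in the knockouts and 3794 and 1523 in the controls. For both genes control B was the lowest library, and the knockout mean was 1.83-fold and 1.54-fold that of control A. HIST1H1B had 2939 and 2160.0 in the knockouts and 1528 and 847 in the controls. Its log2 fold change of 1.10 (SE 0.413, adjusted p 0.221 by DESeq2) in the authors' deposited table had the smallest error of the class. HIST1H1D, the member with the lowest fold change, had 1817 and 1672 in the knockouts and 1403 and 599 in the controls, again without overlap. HIST1H1A had 279 and 281 in the knockouts, 259.9 in control A and no read in control B. The knockouts of HIST1H1A thus matched control A closely, and its log2 fold change of 1.11 carried a standard error of 3.14 in the authors' deposited table. The class median was 1.11 for the log2 fold changes of the authors' deposited table, and 0.62 against control A and 1.93 against control B on the log2(normalized count + 1) scale.

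The H2A genes had positive log2 fold changes for all 13 measured members in the authors' deposited table, with a median of 0.58. Both knockouts lay above both controls for 11 of them (84.6%), against 23.7% of all measured genes, and the groups overlapped for HIST1H2AH and HIST1H2AK. At an unadjusted p under 0.05 in the authors' deposited table, 6 were higher (46.2%), against 3.07%. None had an adjusted p under 0.05. HIST1H2AG had 4534 and 4562 normalized counts in the knockouts and 3033 and 2471 in the controls. Its libraries were close within each group, and its log2 fold change of 0.72 (SE 0.213, adjusted p 0.0821 by DESeq2) gave the lowest adjusted p of the class in the authors' deposited table. HIST1H2AM had 1758 and 1786 in the knockouts and 1149.7 and 1217 in the controls, a log2 fold change of 0.58 (SE 0.175, adjusted p 0.0972 by DESeq2) in the authors' deposited table. For HIST1H2AM the controls differed little, so the knockout mean was 1.54-fold control A and 1.46-fold control B. HIST1H2AL had 166 and 106 in the knockouts and 44.5 and 33.5 in the controls. That was the highest fold change of the class at 1.80 (SE 0.536, adjusted p 0.0893 by DESeq2) in the authors' deposited table, and against control A the 3.06-fold difference was the highest of the measured members. HIST1H2AC had 2803 and 2069 in the knockouts and 1331 and 707 in the controls. HIST1H2AB had 791 and 701 in the knockouts and 528 and 420.3 in the controls, and HIST1H2AI 894 and 715 in the knockouts and 469.9 and 171 in the controls. The groups of these 3 genes did not overlap, and HIST1H2AB varied least between its controls. HIST1H2AH, the member with the lowest fold change, had 525 and 512 in the knockouts and 354 and 576 in the controls, so the knockouts lay between the controls. Against control A the class median was 0.55 and against control B 0.87 on the log2(normalized count + 1) scale.

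The H2B genes were the most mixed of the classes. Both knockouts lay above both controls for 10 of 19 measured members (52.6%), against 23.7% of all measured genes. They lay below for 2 (10.5%), against 21.2%, and 7 overlapped. At an unadjusted p under 0.05 in the authors' deposited table, 4 were higher (21.1%) and 1 lower (5.26%), against 3.07% and 9.43%. None had an adjusted p under 0.05, and 6 had a negative log2 fold change. HIST2H2BC and HIST2H2BD, with base means of 15.7 and 33.6, are annotated as pseudogenes and are included in these counts. HIST1H2BC had 2829 and 3913 normalized counts in the knockouts and 3857 and 4035 in the controls. HIST1H2BD had 1530.0 and 1994 in the knockouts and 1720.4 and 1550.2 in the controls. In neither gene were the groups apart. HIST1H2BK had 1039 and 744 in the knockouts and 494 and 454 in the controls, a log2 fold change of 0.91 (SE 0.302, adjusted p 0.153 by DESeq2) in the authors' deposited table. HIST1H2BN had 1814 and 1364 in the knockouts and 912 and 552 in the controls. HIST1H2BO had 1476 and 1479.5 in the knockouts and 1102 and 773 in the controls, and HIST1H2BL 1465 and 880.0 in the knockouts and 758 and 412 in the controls. These 4 genes, with unadjusted p under 0.05 in the authors' deposited table, had both knockouts above both controls. HIST1H2BG, among the 3 H2B genes with the highest base mean, had 1784 and 1496 in the knockouts and 1216 and 433 in the controls. HIST1H2BE had 11.5 and 11.9 in the knockouts, 12.7 in control A and 401 in control B. Its log2 fold change of -4.15 (SE 1.42, adjusted p 0.170 by DESeq2) in the authors' deposited table therefore stood on control B, and the knockouts differed little from control A. HIST1H2BH had 1241 and 1067 in the knockouts, 927 in control A and no read in control B, which gave the highest fold change of the class, 1.32 with a standard error of 3.43, in the authors' deposited table. The class median was 0.66 for the log2 fold changes of the authors' deposited table, and 0.31 against control A and 0.93 against control B on the log2(normalized count + 1) scale.

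The H3 genes included the called gene HIST1H3C. In 10 of 13 measured members (76.9%) both knockouts lay above both controls, against 23.7% of all measured genes. At an unadjusted p under 0.05 in the authors' deposited table, 4 were higher (30.8%), against 3.07%. The chromosome 6 genes encode one H3 protein, and HIST2H3A, HIST2H3C and HIST2H3D on chromosome 1 encode a variant that differs by a single residue. HIST1H3B had 3632 and 2807 normalized counts in the knockouts and 1842 and 913 in the controls, a log2 fold change of 1.22 (SE 0.443, adjusted p 0.203 by DESeq2) in the authors' deposited table. HIST1H3H had 2717 and 1986 in the knockouts and 1204 and 709.7 in the controls, with 1.30 (SE 0.394, adjusted p 0.106 by DESeq2) in the authors' deposited table. In both genes, as in HIST1H3C, the lower knockout was above the higher control. The HIST1H3D entry with the gene ID ENSG00000197409 was the remaining member with an unadjusted p under 0.05 in the authors' deposited table, with 1532 and 1287 in the knockouts and 968 and 392 in the controls. HIST1H3G had 7702 and 6986 in the knockouts, 4995 in control A and 7.82 in control B. HIST1H3F had 4262 and 3354 in the knockouts, 2152 in control A and no read in control B. For these genes the spread lay between the controls, and the standard errors of their log2 fold changes in the authors' deposited table were 2.49 and 3.61. HIST1H3I had 1 and 0 reads in the knockouts, 0 reads in control A and 231 reads in control B, and its fitted log2 fold change of -8.09 (standard error 4.78) in the authors' deposited table is no bound. The class median was 1.22 for the log2 fold changes of the authors' deposited table, and 0.55 against control A and 1.76 against control B on the log2(normalized count + 1) scale.

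The H4 genes all encode the same protein, apart from HIST1H4G, which had 1 and 4 reads in the knockouts and none in the controls. The knockouts exceeded both controls in 10 of 12 measured members (83.3%), against 23.7% of all measured genes. At an unadjusted p under 0.05 in the authors' deposited table, 6 were higher (50%), against 3.07%. None had an adjusted p under 0.05. HIST1H4B had 2310.1 and 1989 normalized counts in the knockouts and 1392 and 1209 in the controls. The libraries of each group were close, and its log2 fold change was 0.72 (SE 0.222, adjusted p 0.112 by DESeq2) in the authors' deposited table. HIST2H4A had 4163 and 3348 in the knockouts and 2516 and 1768 in the controls. HIST1H4C had 2552 and 2215 in the knockouts and 1766 and 1423 in the controls, and HIST1H4D 1046 and 852 in the knockouts and 645 and 593 in the controls. The groups of these 3 genes did not overlap, and the knockout means were 1.35-fold to 1.49-fold control A. HIST1H4J had 2262 and 1475 in the knockouts and 872 and 342 in the controls, and HIST1H4E 2000.2 and 1143 in the knockouts and 862 and 315 in the controls. HIST1H4H had 3567 and 2993 in the knockouts and 2497 and 2487 in the controls, with an unadjusted p of 0.0504 by DESeq2 in the authors' deposited table. HIST1H4I had 1970.1 and 1463 in the knockouts, 922 in control A and 39.1 in control B. The highest fold change of the class, 1.84 with a standard error of 1.67 in the authors' deposited table, was that of HIST1H4I and rested mostly on control B. HIST1H4L had no read in the knockouts or in control A and 84 reads in control B, so its fitted log2 fold change of -8.03 (standard error 4.79) in the authors' deposited table is no bound. The class median was 0.67 for the log2 fold changes of the authors' deposited table, and 0.56 against control A and 0.78 against control B on the log2(normalized count + 1) scale.

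**Figure D2:**
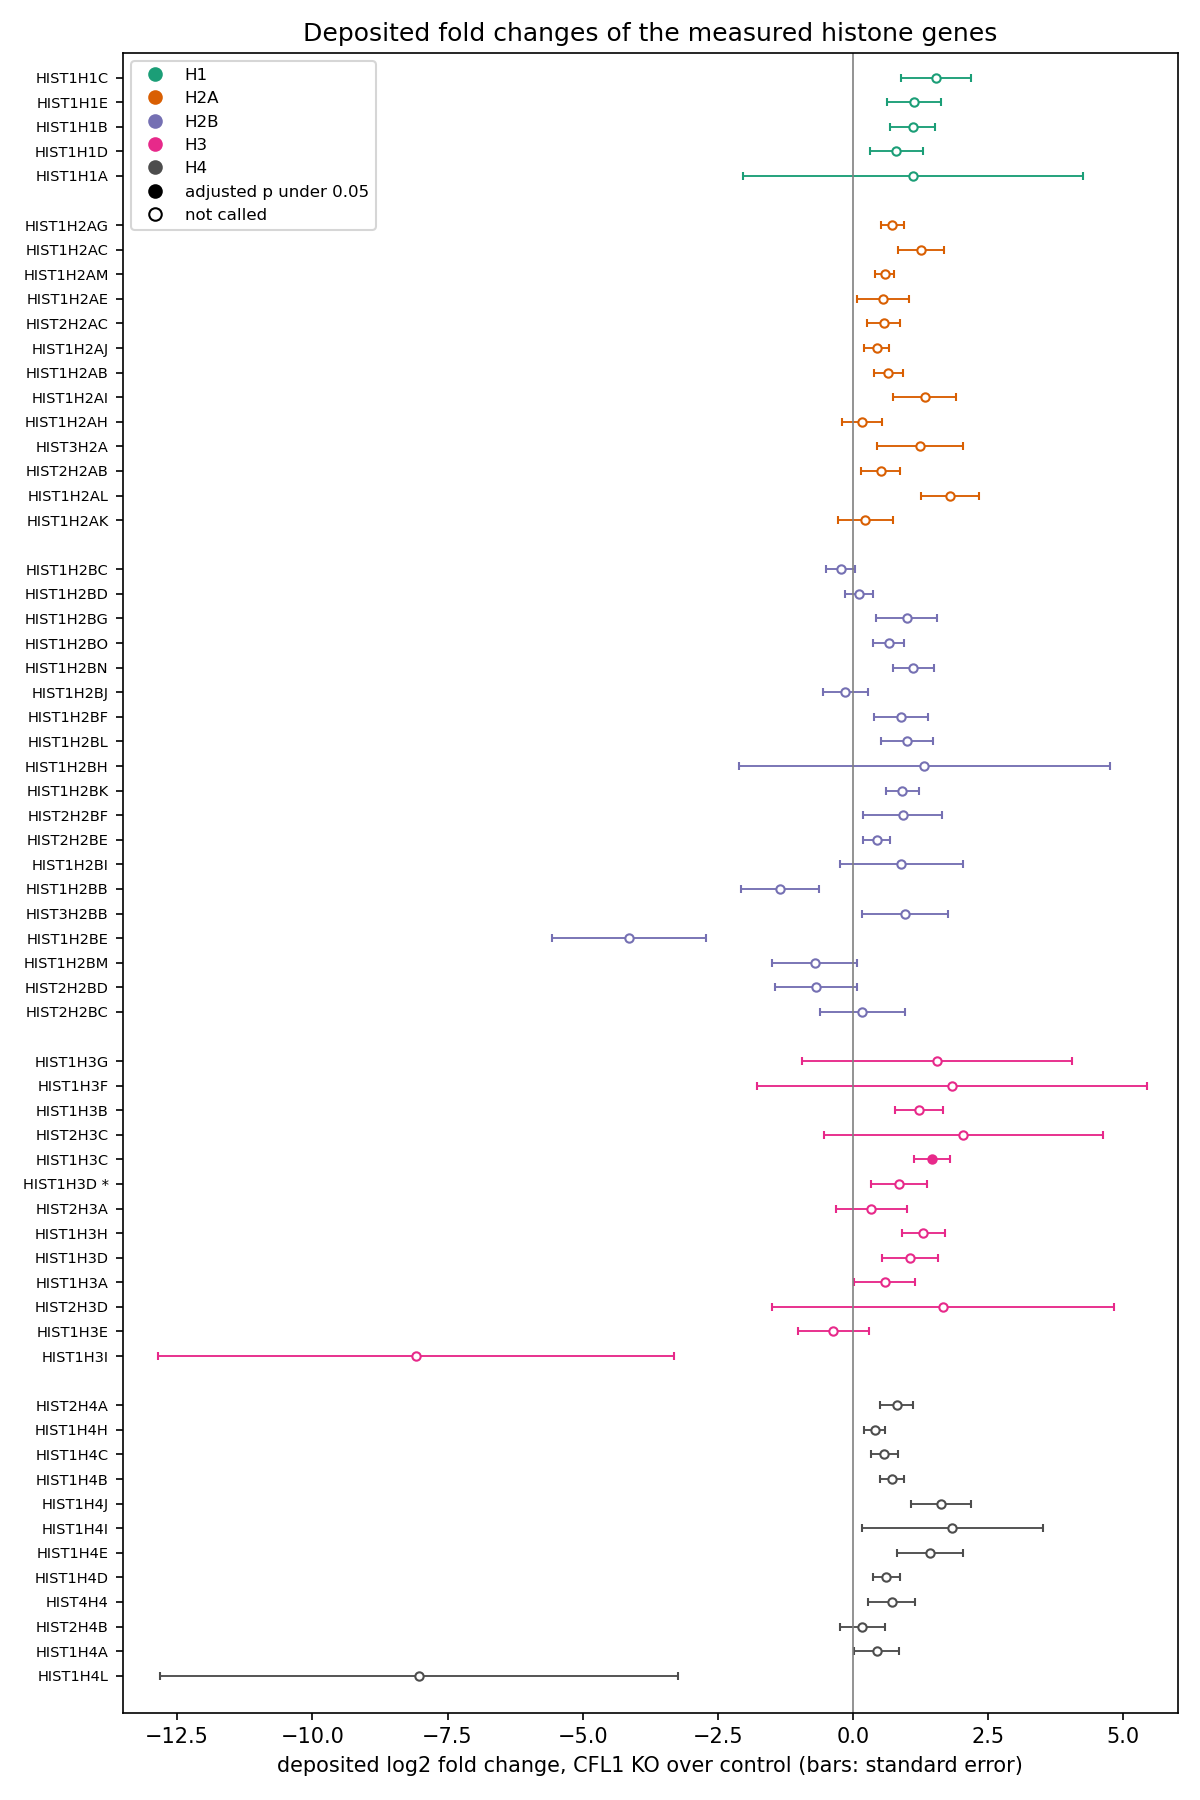
Log2 fold change of the authors' deposited table, knockout over control, for each measured histone gene by class, with bars of 1 standard error. HIST1H3C is the filled point, with an adjusted p under 0.05, and the asterisk marks the HIST1H3D entry that spans HIST1H3D and HIST1H2AD. Among the genes with long bars, HIST1H3I, HIST1H4L and HIST1H3F had reads in 1 control only. HIST1H3G and HIST2H3C had 7 and 2 reads in control B.

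Summed by class, histone counts of each knockout exceeded those of each control in all 5 classes. Counts were not divided by gene length, so sums are compared between libraries and not between classes. The H2A sums leave out HIST2H2AA3 and HIST2H2AA4, which fall outside the rule. One HIST2H2AA4 entry had 7391 and 6616 normalized counts in the knockouts and 5083 and 5098 in the controls. The other had 8583 and 6794 in the knockouts and 4218 and 2415 in the controls. H1 summed to 18477 and 16126 normalized counts in the knockouts and 10747 and 3962 in the controls. H3 summed to 33809 and 27965 in the knockouts and 18703 and 6299 in the controls. In both classes the knockout mean was over 1.6-fold control A, at 1.61 and 1.65, and over 4-fold control B, at 4.37 and 4.90. H2A summed to 16402 and 15558 in the knockouts and 11039.6 and 8118 in the controls, which is 1.45-fold control A and 1.97-fold control B. H4 summed to 21330.3 and 16781 in the knockouts and 12695 and 9019 in the controls, which is 1.501-fold control A and 2.11-fold control B. H2B summed to 18143 and 18094 in the knockouts and 15208 and 12056 in the controls, which is 1.19-fold control A and 1.503-fold control B. H2B had the smallest ratio against either control.

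Over all 62 measured members the sums were 101342 ± 9642 in the knockouts and 53924 ± 20462 in the controls (SD, n = 2 each), a ratio of 1.88. No p is given for this sum, since the members were chosen as a list and an exact permutation of 2 against 2 libraries cannot give a p under 0.333. Against control A the ratio was 1.48 and against control B 2.57. In control B, 13 members lay over 4-fold below the mean of the other 3 libraries (21%) and 3 over 4-fold above (4.84%), against 12.6% and 8.55% of all measured genes. Without those 16 members the ratios were 1.42 against control A and 1.94 against control B. For H3 they were then 1.65 and 2.60, for H1 1.505 and 3.41, for H2A 1.45 and 1.91, for H4 1.42 and 1.81, and for H2B 1.20 and 1.33. The order of the classes against control A placed H3 highest and H2B lowest with and without them, and the differences between classes were not tested.

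Shares were taken within the summed count of the measured members of a library, without HIST2H2AA3 and HIST2H2AA4. As shares of all histone counts, those of H2A are therefore too low and those of the other classes too high. H3 took 31.3% and 29.6% in the knockouts and 27.3% and 15.97% in the controls. H1 took 17.1% in each knockout and 15.7% and 10.04% in the controls. H2B took 16.8% and 19.1% in the knockouts and 22.2% and 30.6% in the controls. For these 3 classes the groups did not overlap. H2A took 15.2% and 16.5% in the knockouts and 16.1% and 20.6% in the controls, and H4 19.7% and 17.8% in the knockouts and 18.6% and 22.9% in the controls, both with overlap. Control A lay nearer the knockouts than control B did in every class.

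**Figure D3:**
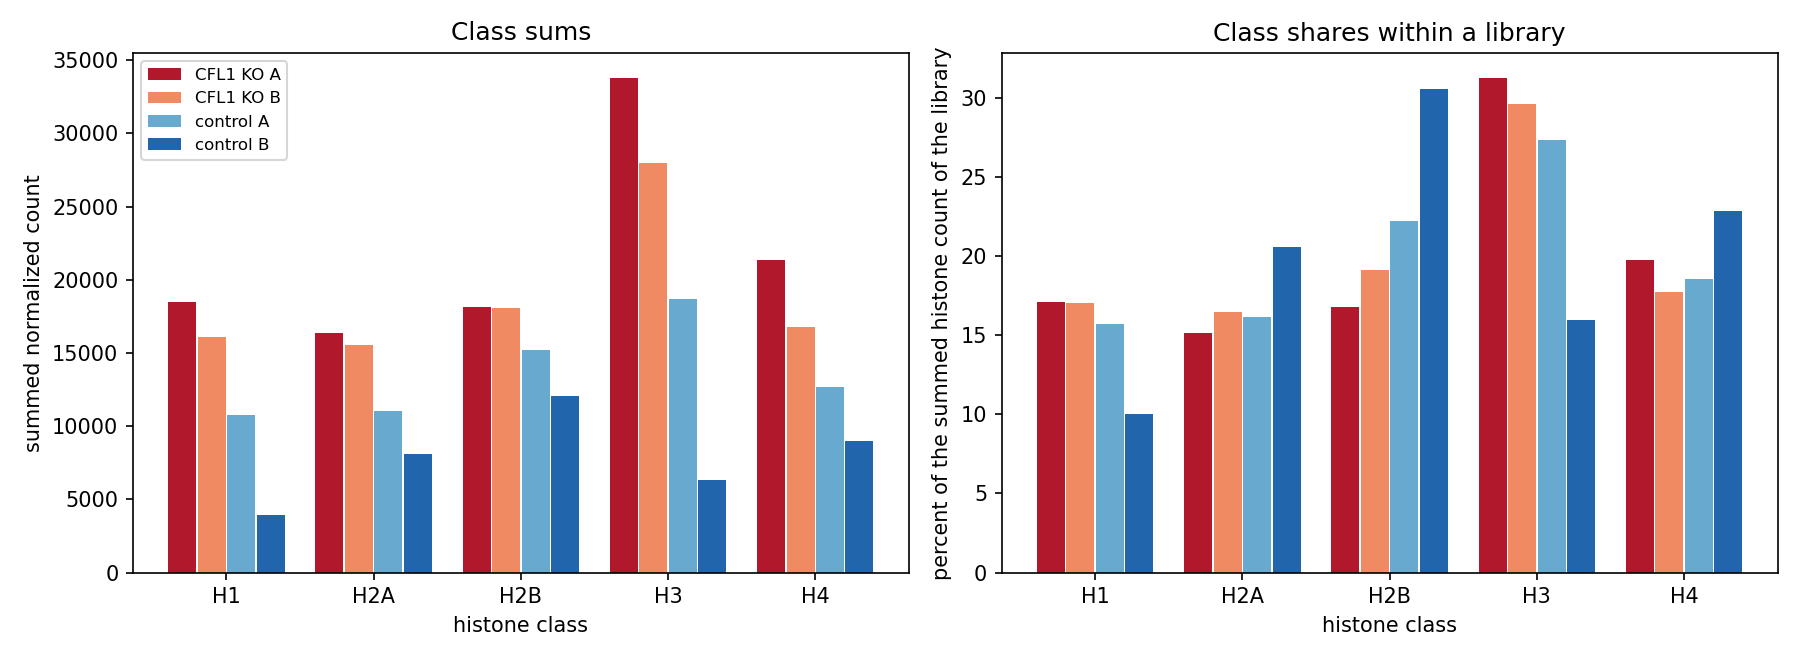
Left, summed normalized counts of the measured members of each class in CFL1 knockout A and B and control A and B. Right, the same sums as a percent of the summed count of all measured members in that library, without HIST2H2AA3 and HIST2H2AA4. In the left panel both knockouts exceed both controls in every class, and in the right panel H3 and H1 take more, and H2B less, of the knockout libraries.

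Head-to-head pairs of H2A and H2B genes let the classes be compared at shared promoters. The annotation holds 11 such pairs with 219 to 331 bases between the gene starts, of which 9 have both genes measured. The H2A gene had the higher log2 fold change in 6 of the 9 pairs in the authors' deposited table, and the H2A minus H2B difference ran from -0.75 to 1.48. The widest pair was HIST1H2AC and HIST1H2BC, whose starts lie 219 bases apart. HIST1H2AC had 2803 and 2069 normalized counts in the knockouts and 1331 and 707 in the controls, while HIST1H2BC had 2829 and 3913 in the knockouts and 3857 and 4035 in the controls. The authors' deposited table has log2 fold changes of 1.26 and -0.23 for them. The pair HIST1H2AH and HIST1H2BK differed the other way, with 0.16 and 0.91 in the authors' deposited table. In HIST1H2AM and HIST1H2BO both genes were higher, with 0.58 and 0.66 in the authors' deposited table. Over the 9 pairs the median was 0.58 for H2A and 0.66 for H2B in the authors' deposited table, and 0.55 and 0.39 against control A on the log2(normalized count + 1) scale. Both genes of a pair had a positive log2 fold change in 6 pairs. HIST1H2BC, HIST1H2BK and HIST1H2BO share at least 75 bases with other H2B genes, and HIST1H2AM with other members. Some genes of the remaining pairs do so too. The reads of such genes were divided by estimation. Whether that division bears on the differences within these pairs was not tested.

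Control B lacked reads in a run of neighbouring genes. HIST1H3F, HIST1H2BH, HIST1H3G and HIST1H2BI follow each other among the measured genes of the chromosome 6 cluster. Together they had 15531 and 11167 reads in the knockouts, 9549 reads in control A and 37 reads in control B. HIST1H1D before this run and HIST1H4H after it did not show the gap, with 599 and 2487 normalized counts in control B. Of the measured members 4 had no read in control B, HIST1H1A, HIST1H2BH, HIST1H3F and HIST2H3D. HIST1H3I and HIST1H4L, which also follow each other, showed the opposite, with 231 and 84 reads in control B and at most 1 read in any other library. For the 4 genes of the run, the summed knockout mean was 1.49-fold control A, close to the 1.48-fold of all members. What sets control B apart at these genes was not tested.

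**Figure D4:**
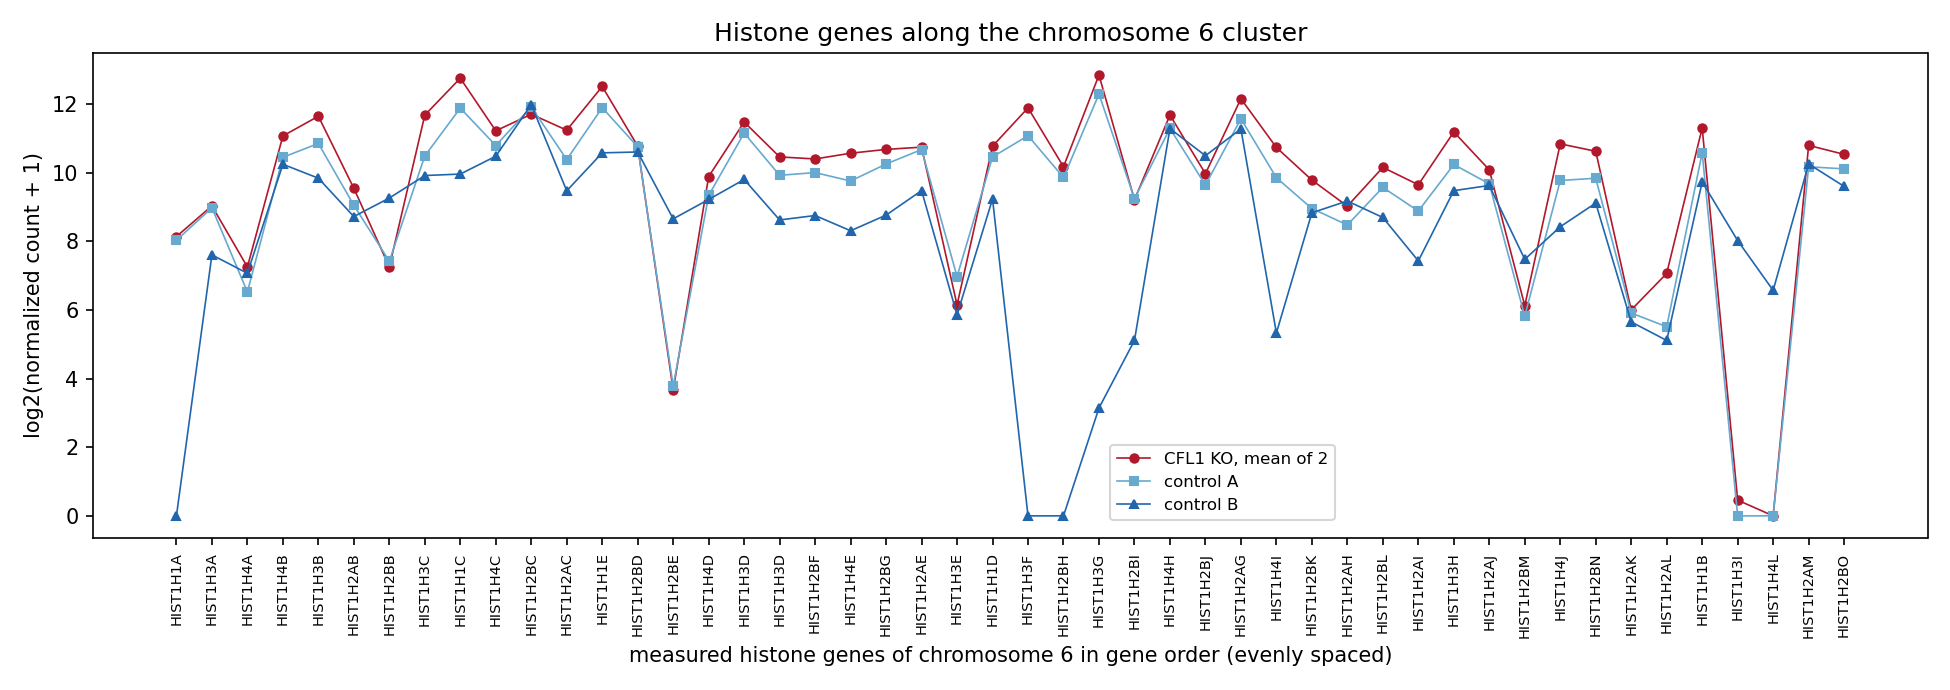
Log2(normalized count + 1) of the measured histone genes of chromosome 6 in gene order, evenly spaced, for the mean of the 2 CFL1 knockouts, control A and control B. The knockout mean and control A follow each other along the cluster, while control B falls to 0 at HIST1H1A, HIST1H3F and HIST1H2BH and lies above the others at HIST1H2BE, HIST1H3I and HIST1H4L.

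Many members share stretches of sequence, and the authors' counting estimated how reads were divided among such genes. By GENCODE v29 transcripts, 31 members, 25 of them measured, share at least 75 bases with another, in a few cases one of another class. Such a stretch does not make the whole genes near-identical. HIST2H3A and HIST2H3C have the same coding sequence, and knockout A gave 894 normalized counts to HIST2H3A and 5241 to HIST2H3C, while knockout B gave 2998 and 2001. Control A gave them 1171 and 1757, and control B 1912 and 2.24. Summed, they had 6135 and 4999 in the knockouts and 2928 and 1915 in the controls, 1.90-fold control A and 2.91-fold control B. The groups overlapped for HIST2H3A and not for the sum, and the fold change of HIST2H3C, the highest of class H3 at 2.04 with a standard error of 2.59 in the authors' deposited table, is uncertain. HIST2H4A and HIST2H4B, also identical in coding sequence, summed to 4648 and 3762 in the knockouts and 3023 and 2058 in the controls. HIST1H4J and HIST1H4K summed to 2262 and 1478 in the knockouts and 872 and 342 in the controls, with 0 and 3 reads given to HIST1H4K in the knockouts. The 7 H2B genes HIST1H2BC, HIST1H2BD, HIST1H2BE, HIST1H2BJ, HIST1H2BK, HIST1H2BN and HIST1H2BO summed to 9578 and 10647 in the knockouts and 8894 and 9204 in the controls. This sum was 1.14-fold control A and 1.10-fold control B, although single genes of the 7 differed by more in either direction.

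Members with and without shared sequence are described apart, without a test. Among the 37 measured members that share no 75 bases with another, both knockouts lay above both controls in 30, and the median log2 fold change was 0.80 in the authors' deposited table. Among the 25 that do, these were 16 and 0.66. The second HIST1H3D entry, ENSG00000282988, spans HIST1H3D and HIST1H2AD in the annotation and had 3053 and 2644 normalized counts in the knockouts and 2273 and 889.7 in the controls. HIST1H2AD itself had 8 reads in knockout A and none elsewhere.

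Other features of the members went with small differences, described without a test. In the authors' deposited table the median log2 fold change was 0.82 for 48 measured members on chromosome 6 and 0.56 for 13 on chromosome 1, and against control A these were 0.52 and 0.39. For 26 measured members with an annotated 3' UTR over 200 bases, which can reach past the stem-loop, the median against control A was 0.39. It was 0.62 for 7 with a UTR of up to 200 bases and 0.54 for 27 with none annotated. Members with the octamer in their promoter had a median of 0.40 against control A (23 genes), and those without it 0.58 (32 genes). The octamer follows class, since nearly all of its holders are H2A and H2B genes. With CCAAT the median was 0.48 (47 genes) and without it 0.56 (8 genes), the genes without it being H4 genes.

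**Figure D5:**
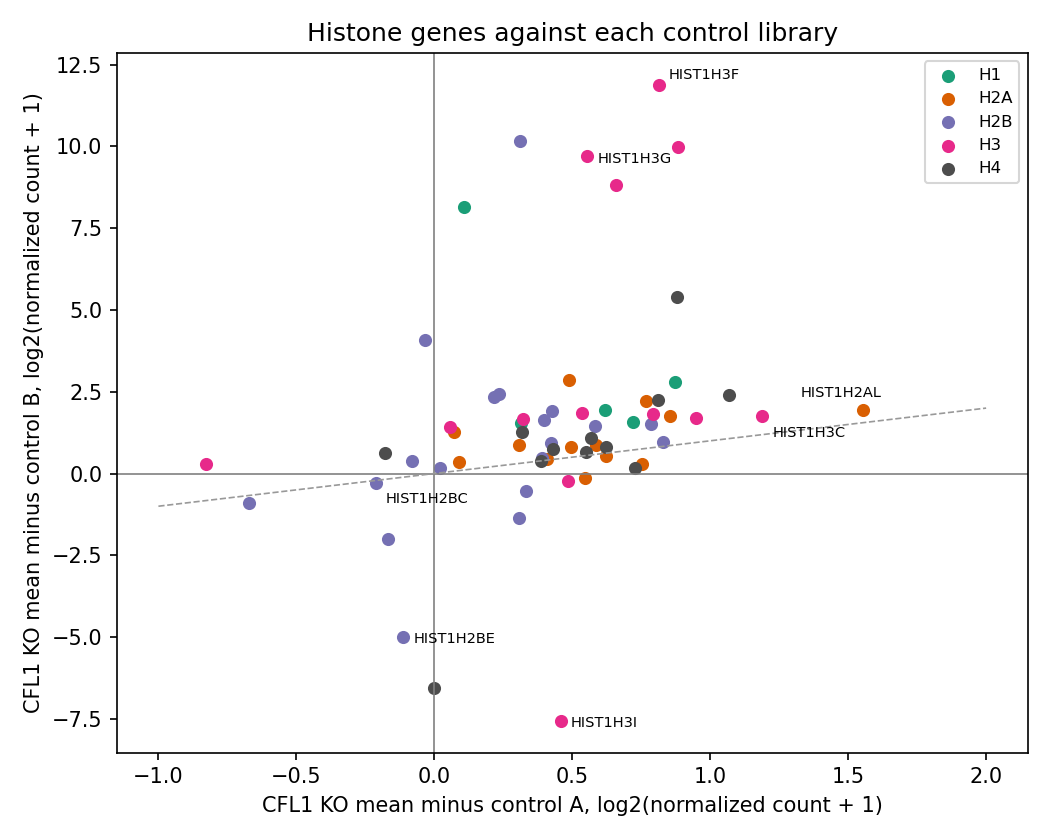
Knockout mean minus control B (y axis) against knockout mean minus control A (x axis), both as log2(normalized count + 1), for each measured histone gene, coloured by class, with a dashed line where both are equal. Most genes lie right of 0 and above 0, with HIST1H2AL farthest right and HIST1H3F highest.

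Genes that work with the histone genes are described by lists taken from common knowledge. Of 12 replication-independent histone genes, whose mRNAs are mostly polyadenylated and also made outside S phase, 11 were measured and none was called at an adjusted p under 0.05 in the authors' deposited table. At an unadjusted p under 0.05 in the authors' deposited table, 3 were higher and 1 lower, against 3.07% and 9.43% of all measured genes. Their median log2 fold change there was 0.11. Both knockouts lay above both controls for 4 and below them for 2, against 23.7% and 21.2%, and 5 overlapped. The 11 genes summed to 24313 and 24358 normalized counts in the knockouts and 24156 and 23521 in the controls, 1.01-fold control A and 1.03-fold control B. H2AFJ, an H2A variant gene, had 443 and 334 in the knockouts and 181 and 92.8 in the controls, with a log2 fold change of 1.503 (SE 0.499, adjusted p 0.154 by DESeq2) in the authors' deposited table. H2AFY2, a macroH2A gene, had 3.54 and 3.24 in the knockouts and 9.997 and 45.8 in the controls. H1F0 and H1FX were the other 2 with a higher value at an unadjusted p under 0.05 in the authors' deposited table, and they are replication-independent H1 genes.

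The genes that make and process histone mRNA were not called. All 19 were measured, and their median log2 fold change was 0.10 in the authors' deposited table. At an unadjusted p under 0.05 there, 0 were higher and 1 was lower, against 3.07% and 9.43% of all measured genes. SLBP, whose protein binds the stem-loop, had 1174 and 1249.8 normalized counts in the knockouts and 1017 and 1413 in the controls (adjusted p 0.996 by DESeq2 in the authors' deposited table). NPAT, the coactivator of histone gene transcription, had 1159.9 and 1326 in the knockouts and 1719.5 and 1174 in the controls (adjusted p 0.757 by DESeq2 in the authors' deposited table). The groups overlapped for both genes. CSTF2, a cleavage stimulation factor gene, had 457 and 411 in the knockouts and 549.8 and 1362 in the controls. LSM10, a gene of the U7 particle that guides histone pre-mRNA cleavage, had 247 and 201 in the knockouts and 204 and 863 in the controls. Control B was the highest library for both CSTF2 and LSM10.

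Of 19 histone chaperone genes none was called, and none had an unadjusted p under 0.05 in the authors' deposited table, where the median log2 fold change was 0.28. CHAF1A, the large subunit of the replication-coupled chaperone CAF-1, had 1612 and 1442 normalized counts in the knockouts and 1221 and 547 in the controls. SSRP1, a subunit of the chaperone FACT, had 6608 and 6360.3 in the knockouts and 5721 and 4859 in the controls. Both knockouts lay above both controls for these 2 genes. Over the 19 chaperone genes this held for 7, while both knockouts lay below both controls for 3 and the groups overlapped for 9. Of 18 S phase genes none was called, 1 was higher at an unadjusted p under 0.05 and the median was 0.45 in the authors' deposited table. At that level, 3.07% of all measured genes were higher and 9.43% lower. CDT1, a replication licensing gene, had 2246 and 2326 in the knockouts and 1351 and 488 in the controls, with 1.31 (SE 0.549, adjusted p 0.279 by DESeq2) in the authors' deposited table. Among the S phase genes both knockouts lay above both controls for 10 and below them for 3, and the groups overlapped for 5. For either list, the shares over all measured genes were 23.7% above and 21.2% below. The S phase genes summed to 62295 and 63796 in the knockouts and 60160 and 33645 in the controls, 1.05-fold control A and 1.87-fold control B. The histone members gave 1.48-fold and 2.57-fold for the same comparisons, and the difference between the lists was not tested.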

How the data were processed

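Total RNA of PANC-1 cells was sequenced in 4 libraries, 2 per group. Per the submitters' processing notes, cutadapt, FastQC, STAR, RSEM and the build hg19 were used, with no versions given. The one table the authors deposited holds a base mean per gene, which is a signal of normalized counts averaged over libraries, a log2 fold change with its standard error, a Wald score and the p-value and adjusted p-value of DESeq2. DESeq2 was not rerun. Reads of each library were solved from the base means as the whole numbers whose scaled sum gives the printed base mean. Their implied fold change also had to match the deposited one within 5e-06, except for a single solution below a base mean of 300 or for the one solution with a group at 0. This gave reads for 30789 of 30819 genes, and for 0 of 500 base means shifted on purpose. At a base mean of 10 or more, 16992 of the 17268 solved genes had a matching fold change. The reads are RSEM's rounded estimates, so reads shared by near-identical genes are divided by estimation. Normalized counts are reads divided by the size factors implied by the deposited base means.

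Limma 3.58.1 in R 4.3.3 tested log2(normalized count + 1) with a trended prior over 24951 genes with a mean of at least 1, with Benjamini-Hochberg adjustment. It was also run on simulated reads drawn around the mean of the knockouts and control A. No simulated library stood apart as control B does, so that run does not show how the test behaves on these libraries. Genes count as measured from a base mean of 10. Annotation came from GENCODE v29, with 69 members matched by ID and 5 by symbol, and promoters from RefSeq GRCh38.p14. Neither shares the build of the files, and no coordinate was carried over. Named are members that were called, the 3 with the highest base mean and the highest and lowest fold change of each class, members with an unadjusted p under 0.05 at a base mean of at least 100, and the 2 genes of lowest p in each context list, with SLBP and NPAT. Markers with fewer than 10 counts on average are given as not measured only, VWF within its list's sum, and 1 other gene that this rule names is not reported here. Members and lists were chosen with earlier results of these data known. Further genes were named after their values were seen: HIST1H1A, HIST1H2AK, HIST1H2AD, HIST2H2BC, HIST2H2BD, HIST2H3A, HIST2H3D, HIST1H3E, HIST1H4G, HIST2H4B, HIST1H4K, HIST1H2BI, HIST1H2BJ, HIST2H2AA4, H1F0, H1FX, KRT19, KRT7, COL1A1, PDGFRB, the longer HIST1H3D entry and members with a base mean below 10.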

Additional observations from a re-analysis of the deposited data

How the results depend on the processing

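HIST1H3C was the only member called under every adjustment of the authors' p tried: a threshold of 0.01, no independent filtering, and base means of at least 10 or 100. Limma called 0 members under other pseudocounts, filters and voom weights, and 0 to 30 when 1 library was left out. The 30 arose without control A, when control B stands alone for its group and is assumed to vary like the knockouts, and 26 of them were higher (17.3% of all genes tested were). The median log2 fold change over members was 0.76 as deposited and 0.81 on recovered log2(normalized count + 1) values. On that second scale it was 0.47 to 1.26 when 1 library was left out, lowest without control B and highest without control A. For H1 (1.11 as deposited, 1.28 recovered) it was 0.62 to 1.93. For H2A (0.58 as deposited, 0.66 recovered) it was 0.55 to 0.87, with 0.81 when scaled to the totals of recovered reads. The log2 ratio of summed counts, 0.91, was 0.57 to 1.36. With other scalings and a base mean of at least 100, both knockouts lay above both controls in 45 to 47 members. Of 594 alternatives for single genes, 545 stayed on their side of the threshold and 21 no longer passed it, while the others passed it only without control A. Except without control A, limma called 0 of all genes in every setting. A gene not called as deposited thus had no way to leave its side there, so the 545 do not measure stability. No called value changed sign, while 15 of the 545, in 8 genes that were not called, did, such as HIST1H2AH without control A and HIST1H3I without control B.

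A pair of alternatives was chosen after seeing the data. Without the 16 members over 4-fold from the rest in control B the median was 0.63, and without members that share 75 bases with another, both knockouts lay above both controls in 30 of 37. No paired analysis was possible because the deposited table has no column per library, and the recovered libraries cannot be tied to the replicate numbers in the labels. At 14454584 to 17141183 recovered reads a library, a count of 0 allows up to 3 reads, for counting error only. The number of libraries, 2 a group, limits each p-value.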
